A study of Mus musculus with 16 samples.

Results

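Transcripts of cytochrome P450 families 2 and 3 were followed in bulk RNA-seq of mouse liver, in control and HIRA KO animals before and after regeneration. The members were the rows of the deposited count table whose gene symbol began with Cyp2 or Cyp3 followed by a subfamily letter and a gene number. Cyp2b9, Cyp2b10, Cyp2b13, Cyp2c55, Cyp2e1 and Cyp2f2 were left out by name, and 8 further rows had fewer than 10 counts in total. This left 43 genes of the 55421 rows in the table, all of them protein coding: 4 of subfamily Cyp2a, 13 of Cyp2c, 8 of Cyp2d, 4 of Cyp2j, 9 of Cyp3a and 1 each of Cyp2g, Cyp2r, Cyp2s, Cyp2t and Cyp2u.

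The series asked how regeneration affects the transcriptome of livers that lack HIRA, the chaperone that places histone H3.3 in chromatin outside of DNA replication. All animals were male, on a C57BL/6 background, and received at 6 months of age an AAV8 virus whose Tbg promoter restricts expression to hepatocytes. In the Cre approach, Tbg-Cre was given to wildtype mice as control and to HIRAfl/fl mice as HIRA KO. In the CRISPR approach, saCas9 was given to wildtype mice with an sgRNA against Rosa26 as control or against HIRA as HIRA KO. Part of the liver was resected 4 weeks after injection and used as the tissue before regeneration, and the remaining liver was taken 5 days later as the tissue after regeneration. Each of the 4 groups held 4 libraries, 2 of each deletion approach by their labels. The columns of the table do not tell which library came from which mouse or approach, so libraries are called here by their running number (1 to 4) within a group. Whether a number marks the same mouse before and after regeneration is not given by the labels, and it was not used to pair libraries. Lobe, day of collection and regeneration moved together and cannot be told apart.

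P450 enzymes are heme proteins of the endoplasmic reticulum that insert oxygen into their substrates with electrons passed on by the reductase Por. In liver, families 2 and 3 carry much of the oxidation of drugs and foreign compounds, and many members also act on steroids, bile acids or fatty acids. Their genes lie in clusters of recent duplicates, and in mice several are made mainly in females or mainly in males, a difference set by the rhythm of growth hormone release.

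Libraries held between 15103059 and 21738619 counts, and levels are given as CPM, counts scaled to a common library size with TMM factors. Hira itself was at 61.4% of the control mean before and 62.0% after regeneration, with no overlap between the groups at either time (exact permutation test, two-sided, p = 0.0286, the smallest that 4 against 4 libraries allow). The sample is whole liver, so fewer cells of a type and less RNA per cell cannot be told apart. The summed CPM of 8 hepatocyte markers lay between 114290.0 and 167700.0 in all libraries. HIRA KO libraries 1 and 2, at both times, stood apart from all others on the second principal component (-36.2 to -47.4, against -1.14 to 31.2 for the rest). Many results are given with and without these 4 libraries. Where no value without them is given, a result can still rest on them. In them the summed CPM of 7 stellate cell and fibroblast markers was 649 and 482 before regeneration, against 248 and 264 in HIRA KO libraries 3 and 4 and 223 to 249 in control. The 5 cholangiocyte markers summed to 143 and 97.0 there, against 57.5 and 73.7 in HIRA KO libraries 3 and 4, and no marker of either list was at 0 throughout. Proliferation markers (16.2 and 11.4 CPM, against 2.79 to 7.33 in control), B cell markers (8.78 and 4.73, against 1.45 to 3.43) and T and NK cell markers (3.55 and 2.73, against 0.945 to 1.72) were also higher there before regeneration. After regeneration the stellate sum was 481 and 374 in libraries 1 and 2, against 315 and 385 in libraries 3 and 4 and 176 to 413 in control. The cholangiocyte sum was then 131 and 106, against 110 and 81.1 and 71.3 to 114, so library 2 was within the range of the others for both lists. The part of these cells in the P450 values was not tested.

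Promoter sequence was available in RefSeq (GRCm38.p6) for 36 of the 43 genes. Of these, 10 held CAAAGTCCA, a core bound by HNF4A, on either strand of the 250 bases before their start: Cyp2c40, Cyp2c65, Cyp2c67, Cyp2c68, Cyp2c69, Cyp2c70, Cyp3a11, Cyp3a16, Cyp3a41a and Cyp3a41b. By window (some genes have more than 1 start), the share was 26.3% of 38, against 0.384% of all 32851 windows of the same length. TGTTTAC, a core bound by FOXA factors, was in 23.7% of the members' windows against 3.17% of all. TTCNNNGAA, the STAT5 core, was in 0.0% against 7.02%. The 3 cores do not overlap one another in the windows shown. Members of a cluster are copies of each other, so these matches are not independent, and a match is a description of letters, not of binding. The windows of Cyp3a11, the most abundant member, and of its cluster neighbours Cyp3a41a and Cyp3a44 are shown first, with both cores in capitals. These neighbours held few counts before regeneration. In 18 of the 38 windows the GENCODE gene begins upstream of the RefSeq start, so that part of the window is transcribed in GENCODE, and such bases are left out of the sequences shown. The 3 stretches lie on the minus strand at chr5:145879965-145880104, chr5:145720137-145720386 and chr5:145805875-145806124.
Cyp3a11: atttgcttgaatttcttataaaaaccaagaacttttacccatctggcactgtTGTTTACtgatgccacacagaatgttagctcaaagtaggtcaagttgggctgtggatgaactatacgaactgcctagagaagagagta
Cyp3a41a: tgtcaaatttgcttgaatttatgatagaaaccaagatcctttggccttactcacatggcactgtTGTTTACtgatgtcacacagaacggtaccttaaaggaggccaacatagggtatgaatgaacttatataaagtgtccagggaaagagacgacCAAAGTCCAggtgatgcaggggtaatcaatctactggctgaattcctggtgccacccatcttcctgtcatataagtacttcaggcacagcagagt
Cyp3a44: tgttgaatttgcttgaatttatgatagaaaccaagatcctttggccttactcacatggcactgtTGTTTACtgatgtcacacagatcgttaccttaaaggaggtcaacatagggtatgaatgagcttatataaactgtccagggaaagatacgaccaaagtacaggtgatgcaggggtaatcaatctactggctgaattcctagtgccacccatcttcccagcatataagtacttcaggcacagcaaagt
The FOXA core was in all 3 windows, and the HNF4A core in those of Cyp3a11 and Cyp3a41a. In Cyp3a11 the HNF4A core lay among the 110 bases left out, which are inside the GENCODE gene, the only member with a core there. The windows of Cyp3a41a and Cyp3a44 were 94.4% identical, those of Cyp3a41a and Cyp3a11 72.9%. The stretches just before Cyp2c40 (chr19:39812815-39812964, minus strand) and Cyp2c69 (chr19:39886800-39886919, minus strand), a further pair with higher counts after regeneration, carried the HNF4A core in the same surrounding sequence.
Cyp2c40: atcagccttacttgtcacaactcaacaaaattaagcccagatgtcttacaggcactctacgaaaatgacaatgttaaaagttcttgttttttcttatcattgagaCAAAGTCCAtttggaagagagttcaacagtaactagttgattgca
Cyp2c69: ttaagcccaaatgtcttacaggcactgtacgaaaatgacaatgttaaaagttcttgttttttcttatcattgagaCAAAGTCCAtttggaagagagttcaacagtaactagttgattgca

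The 43 members together took 1.37% ± 0.053 of all counts in control before regeneration, 1.65% ± 0.127 in HIRA KO before, 1.17% ± 0.151 in control after and 1.51% ± 0.154 in HIRA KO after (SD, n = 4 each). Per kilobase of exon, Cyp3a11, the main mouse enzyme of the CYP3A type, stood first with a mean of 1021 CPM per kb over all 16 libraries. It was followed by Cyp2d9, a testosterone hydroxylase of male liver, at 480.1 CPM per kb. Next came Cyp2d26 at 445, Cyp2d10 at 371, Cyp2c29 at 354 and Cyp2c70, the enzyme that makes muricholic bile acids in mice, at 325 CPM per kb. At the other end, Cyp2d34, Cyp2j8, Cyp2t4, Cyp3a41b and Cyp3a57 lay below 0.2 CPM per kb. The member genes thus spanned 4 orders of magnitude, and the values of the lowest rest on at most 20 counts in any library.

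**Figure D1:**
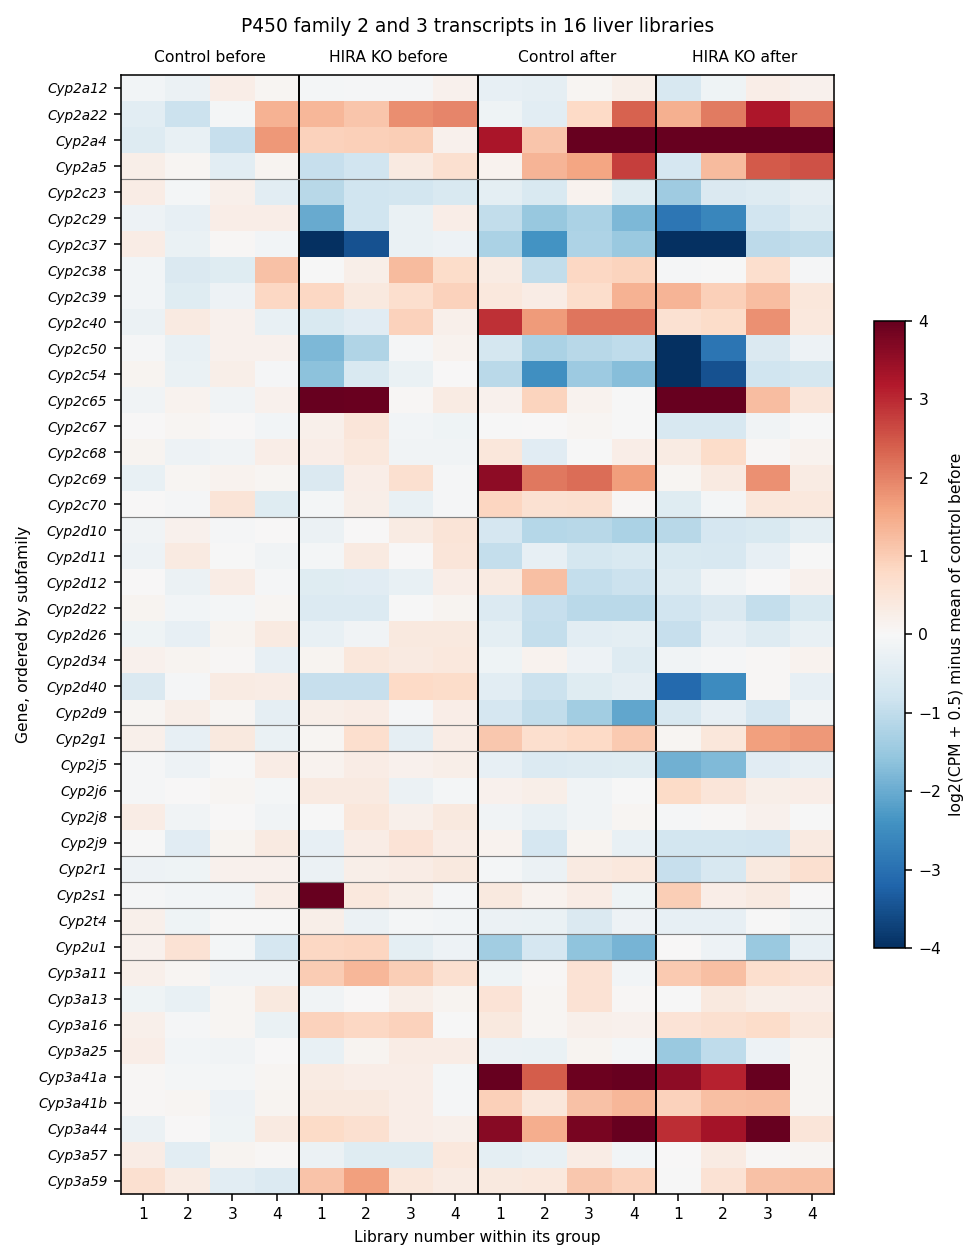
Each row is a member gene, ordered by subfamily, and each column a library in its group. Colour gives log2(CPM + 0.5) minus the mean of the 4 control libraries before regeneration, with the scale ending at -4 and 4. The Cyp3a41a, Cyp3a44 and Cyp2a4 rows are red after regeneration, and Cyp2c37, Cyp2c50 and Cyp2c54 are blue in HIRA KO libraries 1 and 2.

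Cyp3a11 had the smallest p of all members between HIRA KO and control, at both times. Before regeneration it stood at 4008, 3699, 3173 and 3161 CPM in control libraries 1 to 4 and at 7108, 8721, 6849.8 and 5454 CPM in HIRA KO. After regeneration it stood at 3088, 3604, 5179 and 3211 CPM in control and 7180.4, 8043, 5531 and 5219 CPM in HIRA KO. All 4 HIRA KO libraries lay above all 4 controls at both times. The log2 fold change was 1.00 ± 0.20 (SE) before and 0.78 ± 0.20 after, but neither passed the edgeR quasi-likelihood test over all 23018 genes (adjusted p = 0.0838 and 0.0806). DESeq2 called both, at adjusted p = 0.000202 before and 0.00339 after. Without the 4 libraries that stand apart the log2 differences were 0.81 and 0.51, with edgeR adjusted p = 0.287 and 0.353. Cyp3a11 made up 24.8% ± 3.17 of all member counts in control before regeneration and 41.6% ± 8.37 in HIRA KO. After against before regeneration it was not called in either genotype, with log2 differences of 0.10 (95% interval -0.29 to 0.50) in control and -0.12 (-0.51 to 0.28) in HIRA KO.

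Among the 43 members, 0 were called by edgeR between HIRA KO and control before regeneration, against 0.0391% of all genes tested, and 0 after, against 0.491%. At an unadjusted p under 0.05 there were 7 members before (16.3%, against 13.2% of all genes) and 8 after (18.6%, against 15.8%). DESeq2 called 3 before (Cyp2c23, Cyp2c65 and Cyp3a11; 6.98%, against 1.63% of all genes) and 5 after (Cyp2c40, Cyp2c65, Cyp2c69, Cyp2d9 and Cyp3a11; 11.6%, against 3.95%). The groups did not overlap for 2 members before, Cyp3a11 and Cyp2c23 (4.65%, against 8.07% of all genes). After regeneration they did not overlap for 4 members, all higher in HIRA KO: Cyp2d9, Cyp2j6, Cyp3a11 and Cyp3a16 (9.3%, against 8.1% of all genes). The shares of members without overlap were close to or below those of all genes, and the shares called by DESeq2 were above them. The median log2 fold change of the members was 0.18 before and 0.02 after, against 0.01 and 0.02 for all genes.

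Cyp2c23, an epoxygenase of arachidonic acid, was the member with all HIRA KO libraries low before regeneration. It stood at 509, 393, 484 and 312 CPM in control and 191, 240.3, 251 and 274 CPM in HIRA KO, every one below every control. The log2 fold change was -0.83 ± 0.22 (edgeR adjusted p = 0.159, DESeq2 adjusted p = 0.031), and without the libraries that stand apart it was -0.69 (edgeR adjusted p = 0.511). After regeneration the groups overlapped, with 271 to 459.5 CPM in control and 154 to 324 CPM in HIRA KO. Cyp2d9 did so before regeneration, at 1182 to 1811 CPM in control and 1482 to 1862 CPM in HIRA KO. After regeneration Cyp2d9 was at 952, 774, 588 and 360.1 CPM in control and at 992, 1221, 969 and 1392 CPM in HIRA KO, where the highest control lay below the lowest HIRA KO library. That log2 difference was 0.77 ± 0.23 (edgeR adjusted p = 0.115, DESeq2 adjusted p = 0.0193).

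Some neighbouring Cyp2c genes on chromosome 19 that oxidise arachidonic and linoleic acid were split within HIRA KO. Cyp2c37 stood at 421, 289, 359 and 321 CPM in control before regeneration and at 12.3, 30, 288 and 299 CPM in HIRA KO. After regeneration it stood at 142, 64.7, 145 and 121 CPM in control and 6.66, 15.9, 167 and 175 CPM in HIRA KO. HIRA KO libraries 1 and 2, those that stand apart, were below every control at both times, while libraries 3 and 4 lay near the lowest control before regeneration and above every control after it. Cyp2c50 showed the same order, at 247, 371, 834 and 939 CPM in HIRA KO before and 42.1, 112, 579.9 and 741 after, with control at 704 to 973 and 354 to 523 CPM. Cyp2c54 reached 4.26, 23.5, 155 and 164 CPM in HIRA KO after regeneration, with control at 48.6 to 125 CPM. Cyp2c29 followed at 229.8, 284, 1004 and 1205 CPM, with control at 500.0 to 866 CPM. The split was not particular to this cluster. Cyp2d40 on chromosome 15 stood at 43.4, 43.5, 143 and 138 CPM in HIRA KO before and 9.2, 13.9, 84.7 and 65.0 after. Control was at 54.8 to 104 and 45.0 to 64.1 CPM. Nor did all chromosome 19 neighbours share it before regeneration, with HIRA KO at 267, 322, 214 and 205 CPM for Cyp2c67 and 535, 666, 457 and 546 for Cyp2c70. For Cyp2c37 and Cyp2c50 the log2 fold changes of HIRA KO against control before regeneration were -1.14 ± 1.03 and -0.53 ± 0.68 (edgeR adjusted p = 0.682 and 0.791). Without the libraries that stand apart they were -0.24 and 0.03. The transcripts of Cyp2c37 and Cyp2c50 were 95.2% identical, and 69.9% of the 50-base stretches of Cyp2c37 occurred in no other gene.

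**Figure D2:**
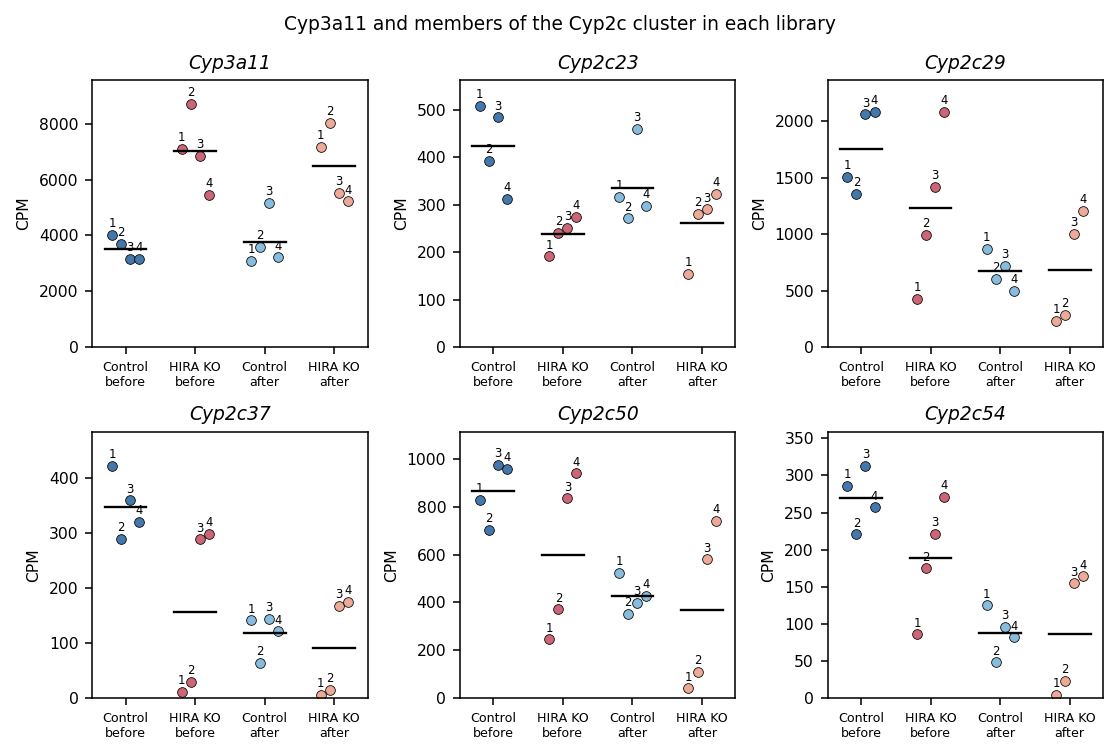
Each point is a library, labelled with its running number, the vertical axis is CPM starting at 0, and the black line is the mean of the 4 libraries of a group. In Cyp3a11 all HIRA KO points lie above control at both times, and in Cyp2c37, Cyp2c50 and Cyp2c54 HIRA KO libraries 1 and 2 lie below libraries 3 and 4.

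Cyp2c65 was high in the same HIRA KO libraries. This gene, known mainly from the gut, stood at 12.3, 8.07, 0.068 and 0.188 CPM in HIRA KO before and 10.4, 9.46, 0.806 and 0.278 CPM after regeneration, while control ran from 0 to 0.118 and 0.048 to 0.516 CPM. Its log2 fold change before regeneration was 6.39 ± 1.88 in the model (edgeR adjusted p = 0.214, DESeq2 adjusted p = 0.00576) and 1.14 without the 4 libraries (edgeR adjusted p = 0.928). After regeneration these were 4.71 ± 1.57 and 1.47 (edgeR adjusted p = 0.173 and 0.518). Control rested on 0 to 9 counts a library, so the size of these fold changes depends on the model. Cyp2s1, an enzyme of epithelia, was at 12, 0.467, 0.34 and 0.188 CPM in HIRA KO before regeneration, high in library 1 alone. The 3 intestine markers summed to 83.2 and 59.1 CPM in HIRA KO libraries 1 and 2 before regeneration and 26.8 and 38.9 CPM after. Control ran from 60.6 to 111 CPM before and 31.0 to 127 CPM after. Other marker sums of these libraries are given above, and whether any of them bear on Cyp2c65 and Cyp2s1 was not tested. Cyp2a22 did not follow this order. It stood at 11.3, 9.54, 16.5 and 17.6 CPM in HIRA KO before regeneration and 11.9, 19.3, 43.6 and 20.7 CPM after, lowest in libraries 1 and 2, with control at 2.04 to 11.7 and 2.98 to 23.3 CPM. Its log2 difference after regeneration was 1.34 ± 0.68 (edgeR adjusted p = 0.359).

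After regeneration in control, members with low counts before rose and part of the Cyp2d subfamily fell. Of the 43 members 10 were called (23.3%), against 10.2% of all genes tested. Of these, 6 were higher (6.04% of all genes were) and 4 lower (4.17% of all genes were). DESeq2 called 14 members (32.6%, against 14.3% of all genes). The libraries before and after did not overlap for 17 members (39.5%, against 19.0% of all genes), with 6 higher and 11 lower after. The median log2 fold change of members was 0.07, against 0.00 for all genes. With the 4 HIRA KO libraries that stand apart taken out of the shared spread, 19 of the 43 members were called, against 16.4% of all genes.

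The members that rose in control were Cyp3a41a, Cyp2a4, Cyp3a44, Cyp2c69, Cyp3a41b and Cyp2c40. Their counts before were low, but their deposited FPKM were not near 0. Mean FPKM in control before regeneration was, in this order, 11.9, 9.56, 11.6, 11.7, 6.87 and 18.8. Low counts of these members are thus not shown to mean an absent transcript. Cyp3a41a (chr5:145694049-145720136) held 1, 0, 0 and 1 counts in the control libraries before regeneration and 168, 41, 138 and 285 after. The summed counts, 632 against 2, gave a ratio of 318 at equal depth (95% interval 87.7 to 2630, for counting error only), and the fitted log2 fold change of 7.96 ± 1.29 depends on the prior count (edgeR adjusted p = 0.00211). Its neighbour Cyp3a44 stood at 0.149, 0.269, 0.172 and 0.474 CPM before and 8.96, 1.55, 9.97 and 25.7 CPM after, a log2 fold change of 5.43 ± 1.08 (edgeR adjusted p = 0.00684). Every library after regeneration lay above every library before it for both genes. Cyp3a41b, a near copy of Cyp3a41a, ran from 0 to 0.118 CPM before and from 0.287 to 0.96 CPM after (log2 fold change 2.95 ± 0.67, edgeR adjusted p = 0.00916).

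Cyp2a4 (chr7:26307169-26315088), a testosterone hydroxylase of female liver, stood at 0.995, 1.24, 0.63 and 6.51 CPM before and 20.1, 4.13, 88.3 and 606 CPM after. Library 4 was the highest at both times and library 2 after regeneration lay below library 4 before it, so the groups overlapped. The log2 fold change was 6.28 ± 1.46 (edgeR adjusted p = 0.0169), and the call was lost without control library 1 or 2 before regeneration (edgeR adjusted p = 0.0554 and 0.0551) and in a fit of the control groups alone (adjusted p = 0.0886). Cyp2a5, its close copy on the same chromosome that hydroxylates coumarin and nicotine, was not called by edgeR (log2 difference 1.73 ± 0.66, adjusted p = 0.123). It was called by DESeq2 (adjusted p = 0.0217) and by edgeR without the 4 libraries that stand apart (adjusted p = 0.0408), and in HIRA KO by DESeq2 (adjusted p = 0.0117) but not by edgeR (adjusted p = 0.085). Cyp2a5 stood at 313, 277, 199 and 287 CPM before and 295, 676, 786 and 1820.0 CPM after, with library 4 again the highest after regeneration.

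Cyp2c40 (chr19:39767071-39812814) and Cyp2c69 (chr19:39842814-39886799) lie side by side. Cyp2c40, which oxidises arachidonic acid, stood at 0.696, 1.29, 1.09 and 0.651 CPM before and 10.1, 4.13, 5.67 and 5.66 CPM after (log2 fold change 2.77 ± 0.49, edgeR adjusted p = 0.00237). Cyp2c69 stood at 0.298, 0.538, 0.572 and 0.533 CPM before and 11.2, 3.73, 4.09 and 2.59 CPM after (log2 fold change 3.46 ± 0.63, edgeR adjusted p = 0.00306). Neither gene had overlapping groups, and both calls held with any 1 library left out. In HIRA KO after regeneration these genes stood at 1.63, 1.82, 4.51 and 1.39 CPM for Cyp2c40 and 0.544, 0.755, 2.99 and 0.723 CPM for Cyp2c69. The difference from control after regeneration was -1.45 ± 0.45 for Cyp2c40 and -2.10 ± 0.57 for Cyp2c69 on the log2 scale (edgeR adjusted p = 0.133 and 0.0986, DESeq2 adjusted p = 0.0426 and 0.013). HIRA KO library 3 was the highest of its group for both, and without it edgeR called both, at -1.95 for Cyp2c40 and -2.96 for Cyp2c69 (adjusted p = 0.0416 and 0.0238). These calls then rested on HIRA KO libraries 1, 2 and 4. Without the 4 libraries that stand apart, edgeR called 0 members in this comparison.

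**Figure D3:**
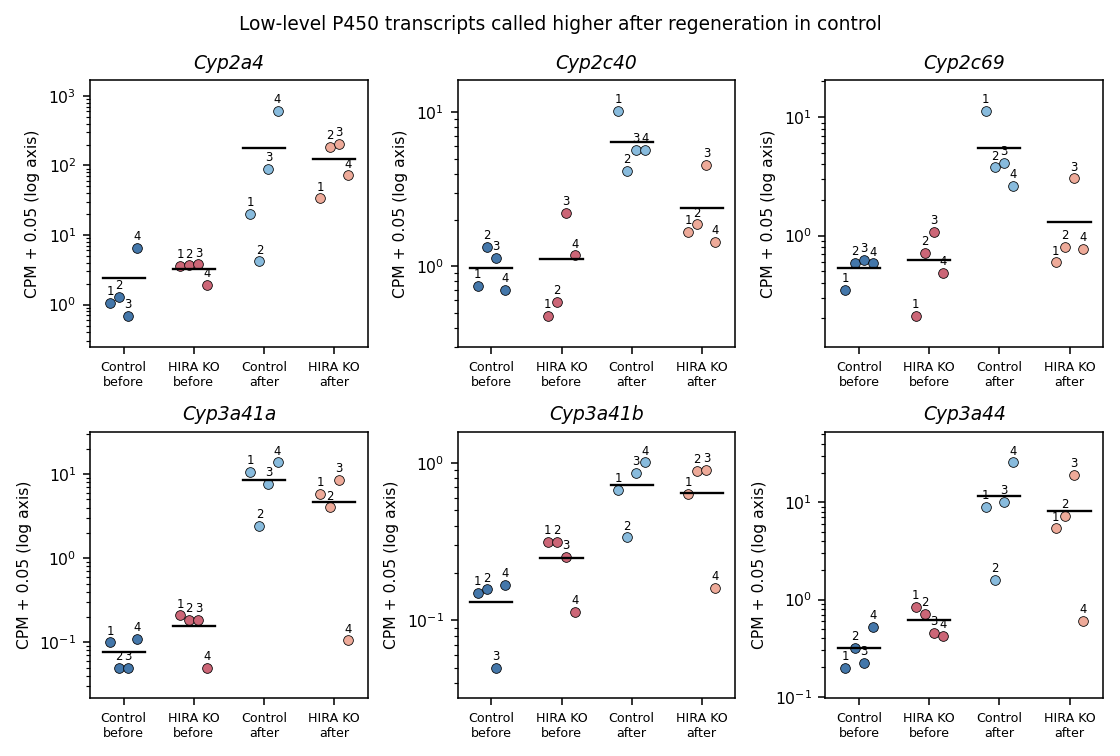
Each point is a library with its running number, the vertical log axis gives CPM + 0.05, and the black line is the arithmetic mean of a group plus 0.05. After regeneration the 4 control points lie above those before it in each panel but Cyp2a4, and HIRA KO library 4 stays low for Cyp3a41a, Cyp3a41b and Cyp3a44.

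Of the 6 members taken as female-predominant in mouse liver (Cyp2a4, Cyp2c69, Cyp3a16, Cyp3a41a, Cyp3a41b and Cyp3a44), 5 were called higher in control (6.04% of all genes were) and 3 in HIRA KO (6.48% of all genes were). This list was chosen with earlier results of these data known and is no independent evidence of a direction. Cyp3a16, the sixth, was at 0.296 to 0.597 CPM before and 0.516 to 0.752 CPM after in control. Of 8 male-predominant genes, of which Cyp2d9 is a member, all 8 had lower values after regeneration in both genotypes, and their median log2 fold change was -1.86 (control) and -0.85 (HIRA KO). In control edgeR called Cyp2d9, with 4 at an unadjusted p under 0.05 and 3 by DESeq2 (Cyp2d9, Hsd3b5 and Slco1a1), and 0 were called in HIRA KO by edgeR, with 2 at an unadjusted p under 0.05 and 1 by DESeq2, again Cyp2d9. Over all genes, 23.5% in control and 27.4% in HIRA KO had an unadjusted p under 0.05, and DESeq2 called 14.3% and 15.9%.

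Members that fell in control were Cyp2d9, Cyp2d10, Cyp2d22 and Cyp2u1. Cyp2d9 went from 1601, 1811, 1602 and 1182 CPM before to the values after regeneration given above (log2 fold change -1.21 ± 0.23, edgeR adjusted p = 0.00322). Cyp2d10 stood at 679.9, 841, 733 and 761 CPM before and 477, 337, 345 and 312 CPM after (log2 fold change -1.03 ± 0.18, edgeR adjusted p = 0.00212). Cyp2d22 stood at 360.3, 309.9, 317 and 349.9 CPM before and 229.8, 175, 157 and 156 CPM after (log2 fold change -0.90 ± 0.16, edgeR adjusted p = 0.00246). In these 3 genes no library after regeneration reached the lowest library before it, and the calls held with any 1 library left out. In the Cyp2d subfamily, 7 of 8 members had lower values after regeneration, with a median log2 fold change of -0.82. Together the Cyp2d members took 0.352% ± 0.0183 of all counts before and 0.191% ± 0.0215 after (SD, n = 4).

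Cyp2u1, which hydroxylates long-chain fatty acids, stood at 41.2, 54.1, 34.2 and 22.5 CPM before and 13.4, 22.6, 11.4 and 9.6 CPM after in control, with library 2 after regeneration just above library 4 before it. Its log2 fold change was -1.42 ± 0.41 (edgeR adjusted p = 0.0419), and the call was lost without control library 1, 2 or 3 before or library 1, 3 or 4 after regeneration (log2 fold changes of -1.20 to -1.47, edgeR adjusted p from 0.0623 to 0.114). Cyp2r1, a vitamin D hydroxylase, stayed at 14.3 to 18.7 CPM before and 13.8 to 22.1 CPM after. Its log2 difference was 0.13 (95% interval -0.45 to 0.71).

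Several abundant Cyp2c members had lower values after regeneration in control without passing the test. Cyp2c29 stood at 1509, 1358, 2059 and 2082 CPM before and 866, 606, 719 and 500.0 CPM after (log2 difference -1.38 ± 0.53, edgeR adjusted p = 0.126). The log2 differences were -1.56 ± 1.04 for Cyp2c37, -1.02 ± 0.69 for Cyp2c50 and -1.61 ± 0.79 for Cyp2c54 (edgeR adjusted p = 0.419, 0.42 and 0.243). All 4 genes had every control library after below every control library before regeneration. Without the 4 libraries that stand apart, which were the low ones for these genes in HIRA KO, the same comparisons had edgeR adjusted p = 0.000262, 0.000628, 0.0002 and 0.00131 for Cyp2c29, Cyp2c37, Cyp2c50 and Cyp2c54. Cyp2j5, an epoxygenase of arachidonic acid, was also lower in every control library after regeneration, with a log2 difference of -0.48 ± 0.27 (edgeR adjusted p = 0.322, and 0.00933 without the 4 libraries).

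In HIRA KO, 5 of the 43 members were called after against before regeneration (11.6%, against 12.0% of all genes), of which 3 were higher (6.48% of all genes) and 2 lower (5.53% of all genes). DESeq2 called 11 members (25.6%, against 15.9% of all genes). The libraries did not overlap for 5 members (11.6%, against 16.1% of all genes). Cyp2a4 rose from 3.55, 3.6, 3.74 and 1.88 CPM to 33.5, 183, 204 and 72.1 CPM, a log2 fold change of 5.27 ± 1.40 (edgeR adjusted p = 0.0292), with all libraries after above all before. Cyp3a41a had 3, 2, 2 and 0 counts before and 128, 89, 179 and 1 after (log2 fold change 5.32 ± 1.11, edgeR adjusted p = 0.00827). Cyp3a44 stood at 0.794, 0.667, 0.408 and 0.376 CPM before and 5.35, 7.15, 19 and 0.557 CPM after (log2 fold change 3.81 ± 0.98, edgeR adjusted p = 0.0244). Library 4 after regeneration stayed within the range before it for Cyp3a41a and Cyp3a44, while Cyp2a4 was at 72.1 CPM in that library. The calls rested on few libraries: Cyp2a4 was lost without HIRA KO library 1, 2, 3 or 4 before or library 2 or 3 after (edgeR adjusted p from 0.0533 to 0.0828), and Cyp3a44 without library 2, 3 or 4 before or library 3 after (0.0574 to 0.074). Without the 4 libraries that stand apart the log2 fold changes were 5.63, 5.91 and 4.63 for Cyp2a4, Cyp3a41a and Cyp3a44, with 2 libraries a group and edgeR adjusted p = 0.19, 0.144 and 0.171.

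Cyp2d10 and Cyp2j5 fell in HIRA KO. Cyp2d10 stood at 641, 759, 946 and 1064 CPM before and 349.7, 467, 489.9 and 576 CPM after (log2 fold change -0.86 ± 0.18, edgeR adjusted p = 0.00641). Cyp2j5 stood at 634, 698, 650.2 and 674 CPM before and 150.0, 168, 416 and 455 CPM after (log2 fold change -1.16 ± 0.28, edgeR adjusted p = 0.0129). Neither gene had overlapping groups, and for Cyp2j5 libraries 1 and 2 after regeneration were the lowest. Without the 4 libraries that stand apart the log2 fold change of Cyp2j5 was -0.60 (edgeR adjusted p = 0.0297) and that of Cyp2d10 was -0.91 (adjusted p = 0.00731). Cyp2d9 and Cyp2d22 were not called here by edgeR, with log2 differences of -0.61 ± 0.23 and -0.50 ± 0.16 (edgeR adjusted p = 0.0947 and 0.0521). Their libraries after regeneration were all below those before it, and DESeq2 called both (adjusted p = 0.048 and 0.0189). Without the 4 libraries that stand apart edgeR called Cyp2d22 (adjusted p = 0.0108) and not Cyp2d9 (adjusted p = 0.464).

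The remaining abundant members were not called in any comparison by edgeR over all libraries. Cyp2d26 stood at 812, 727, 989 and 1167 CPM in control before regeneration and 700.2, 464, 671 and 696 CPM after (log2 difference -0.55 ± 0.20, edgeR adjusted p = 0.103). In HIRA KO it stood at 742, 829, 1189 and 1186 CPM before and 476, 721, 637 and 744 CPM after (log2 difference -0.61 ± 0.20, edgeR adjusted p = 0.0579). Without the 4 libraries that stand apart both differences were called, at edgeR adjusted p = 0.0249 and 0.037, and DESeq2 called both. Cyp2c70 went the other way in control, from 399 to 806 CPM before to 582 to 1021 CPM after (log2 difference 0.53 ± 0.23, edgeR adjusted p = 0.177), with overlapping groups. Cyp3a25 ranged over 512 to 683 CPM before and 471 to 618 CPM after in control, and was at 205, 283, 491 and 598 CPM in HIRA KO after regeneration, low in libraries 1 and 2. Cyp2a12 was at 515 to 725 CPM before and 472 to 711 CPM after in control, with a log2 difference of -0.08 (95% interval -0.44 to 0.29).

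Cyp2u1 in HIRA KO was at 64.6, 65.4, 27.7 and 31.7 CPM before regeneration and 36.9, 31, 12.7 and 28.9 CPM after, overlapping between the times (log2 difference -0.79 ± 0.40, edgeR adjusted p = 0.22). The other 17 members were not called in any comparison by edgeR over all libraries, and their log2 differences ran from -1.29 (Cyp2t4) to 1.60 (Cyp2g1) after against before regeneration in control and from -1.09 (Cyp2d40) to 1.52 (Cyp2g1) in HIRA KO. The smallest adjusted p among them was 0.0545, for Cyp2d11 in control. Leaving out the 4 libraries that stand apart, edgeR called Cyp2g1 in control and in HIRA KO (adjusted p = 0.0102 and 0.00616) and Cyp2d11 in control (adjusted p = 0.033). DESeq2 called Cyp2d11 in both genotypes (adjusted p = 0.0266 and 0.0417) and Cyp2c67 in HIRA KO (adjusted p = 0.03). Between HIRA KO and control they ran from -0.40 (Cyp3a57) to 1.19 (Cyp3a16) before and from -0.41 (Cyp2d40) to 0.89 (Cyp2j8) after, with adjusted p of at least 0.178 (edgeR).

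**Figure D4:**
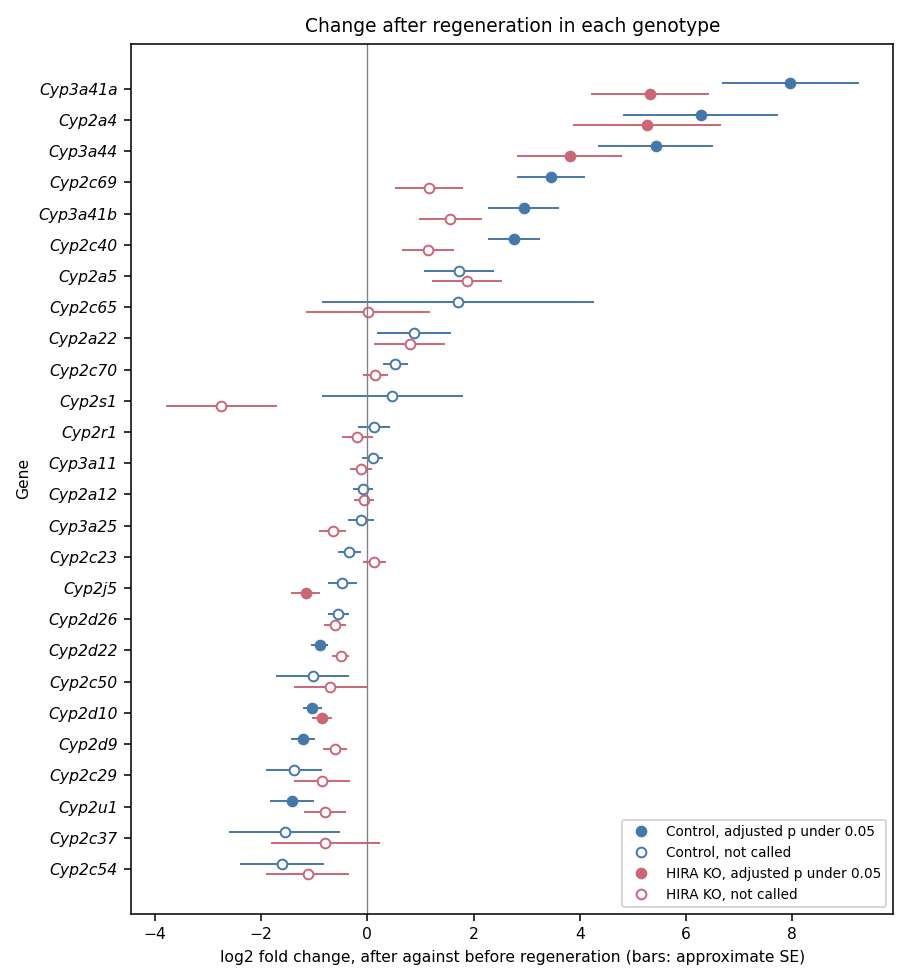
Points give the log2 fold change after against before regeneration of the 26 named members in control (blue) and HIRA KO (red), bars the approximate SE, and filled points an edgeR adjusted p under 0.05. Cyp3a41a, Cyp2a4, Cyp3a44 and Cyp2d10 are filled in both genotypes.

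Whether the response to regeneration differed between the genotypes was tested by an interaction term. By edgeR 0 of 43 members were called, with 0.0% of all genes called and 0 members by DESeq2. At an unadjusted p under 0.05 there were 2 members (4.65%, against 6.81% of all genes). The smallest adjusted p among members was that of Cyp2c69, with a difference of -2.30 ± 0.90 on the log2 scale (edgeR adjusted p = 0.629). For Cyp3a11 the difference was -0.22 (95% interval -0.78 to 0.34). A call in 1 genotype and not in the other was therefore not shown to be a difference between them at this number of libraries.

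Several members share much of their sequence with a copy. Of the 50-base stretches in the transcripts of Cyp3a41a, 1.39% occurred in no other gene, and of those of Cyp3a41b 6.5%. The transcripts of this pair were 99.7% identical. The share was 39.7% for Cyp2c40, 45.7% for Cyp2c69, 61.2% for Cyp2a4 and 73.6% for Cyp3a44. In the deposited FPKM table several members stood much higher than in the counts. Cyp3a41a was at 14.9, 10.5, 10.6 and 11.7 FPKM in the control libraries before regeneration, where its counts were 1, 0, 0 and 1, and at 35.7, 18.2, 37.2 and 58.9 FPKM after. Mean FPKM divided by mean CPM per kb was 18 for Cyp3a41a and 96.3 for Cyp3a41b, against 0.929 for Cyp2d26 and 1.25 for Cyp2c70. Members with mostly unique sequence could also have high ratios, as Cyp2d34 (50.7, with 92.5% of stretches unique), Cyp2d12 (21.7, with 92.4%) and Cyp3a16 (19.7, with 89.3%), so what sets the ratio was not tested. On log2(FPKM + 1) with limma, the change in control was 1.48 for Cyp3a41a and 1.76 for Cyp3a41b, both called (adjusted p = 0.0109 and 0.00663). It was not called for Cyp3a44 (0.56, limma adjusted p = 0.273), Cyp2c40 (0.41, 0.0722), Cyp2c69 (0.49, 0.0508) and Cyp2a4 (2.58, 0.064). In HIRA KO the FPKM change was 0.93 for Cyp3a41a and 0.77 for Cyp3a44, neither called (limma adjusted p = 0.0707 and 0.0935), while Cyp2a4, Cyp2d10 and Cyp2j5 kept their calls and Cyp3a16 and Cyp3a41b were called in addition. The sizes of these fold changes thus differ between the counts and the FPKM. The calls of Cyp2d9, Cyp2d10, Cyp2d22 and Cyp2u1 held on the FPKM scale.

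**Figure D5:**
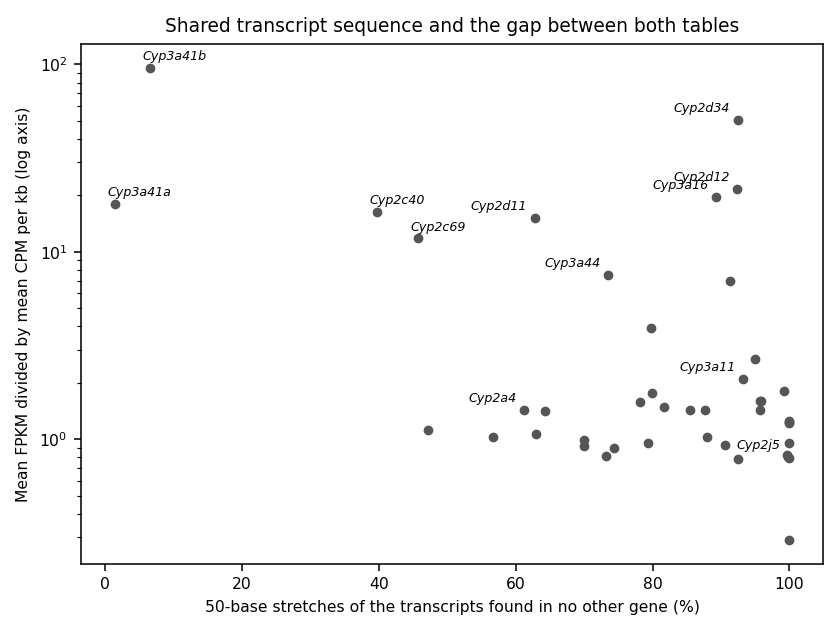
Each point is a member. The horizontal axis is the percentage of its 50-base transcript stretches found in no other gene, and the vertical log axis is mean FPKM divided by mean CPM per kb. Cyp3a41b and Cyp3a41a lie at the left with ratios of 96.3 and 18.0, Cyp2d34, Cyp2d12 and Cyp3a16 at the right have ratios of 50.7, 21.7 and 19.7, and most members lie below 2.

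Genes that serve or control these enzymes were followed in lists. Over all genes, edgeR called 6.04% higher and 4.17% lower after regeneration in control, and 6.48% higher and 5.53% lower in HIRA KO. Of 5 electron transfer genes, 1 fell in HIRA KO after regeneration (Cyb5b, log2 fold change -0.65). Por, the reductase itself, stood at 198, 164, 115 and 182 CPM in control and 333, 349, 252 and 282 CPM in HIRA KO before regeneration, a log2 difference of 0.88 ± 0.32 (edgeR adjusted p = 0.275). After regeneration Por was at 164, 136, 189 and 197 CPM in control and 415, 754, 209 and 241 CPM in HIRA KO (log2 difference 1.24 ± 0.32, edgeR adjusted p = 0.0867). The groups did not overlap at either time, and libraries 1 and 2 were the highest of HIRA KO. The fit of Por without the libraries that stand apart is not reported here. Of 8 heme synthesis genes 1 was called lower after regeneration in HIRA KO, the ferrochelatase Fech (-0.43 ± 0.14, edgeR adjusted p = 0.0471). Of 14 regulators, Cebpa fell (-0.91 ± 0.21, edgeR adjusted p = 0.011) and Ahr rose (0.53 ± 0.14, adjusted p = 0.0217) in control. In HIRA KO Nr3c1 and Ppara fell by 0.30 and 0.87 on the log2 scale (edgeR adjusted p = 0.0425 and 0.0427). The nuclear receptors Nr1i2 (PXR), Nr1i3 (CAR) and Hnf4a were not called in any of the comparisons by edgeR or DESeq2.

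Of 10 genes of growth hormone signalling and sex-dependent repression, Ghr, the hormone's receptor, and Stat5b fell after regeneration in both genotypes. Ghr fell by 0.98 in control and 0.74 in HIRA KO on the log2 scale (edgeR adjusted p = 0.00648 and 0.0296), and Stat5b by 0.49 and 0.69 (0.0443 and 0.00726). Cux2, a repressor made mainly in female liver, rose in HIRA KO (2.71 ± 0.83, edgeR adjusted p = 0.0487). Among 13 other liver P450 genes, Cyp27a1, Cyp4f15 and Cyp4v3 fell in control and Cyp27a1 in HIRA KO. Of 8 pericentral hepatocyte genes, 0 were called in control by edgeR (1 at an unadjusted p under 0.05, and Cyp2e1 by DESeq2). In HIRA KO edgeR called Lgr5 lower (2 at an unadjusted p under 0.05, and Cyp2e1 and Lgr5 by DESeq2). Of 7 periportal genes, Gls2, Hal and Pck1 fell in control and Cyp2f2, Hal and Pck1 in HIRA KO. Between HIRA KO and control, 0 of the 78 genes of these lists were called by edgeR at either time (0.0391% of all genes before and 0.491% after). At an unadjusted p under 0.05 there were 10 of 78 before (13.2% of all genes) and 15 after (15.8% of all genes). DESeq2 called 2 before (Cyp17a1 and Cyp39a1, with 1.63% of all genes called) and 8 after, Por among them (3.95% of all genes). After regeneration all 6 Kupffer cell markers and all 4 proliferation markers were called higher in both genotypes, with summed Kupffer markers at 145 to 380 CPM before and 611 to 787 CPM after in control. Whether this shift bears on the P450 values was not tested.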

How the data were processed

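Polyadenylated RNA of 16 mouse liver samples was sequenced from directional libraries. Per the labels, the authors' processing named STAR, HTSeq and Cufflinks and the build mm10, and the study's methods describe STAR alignment with counting by HOMER. The authors deposited read counts per gene and a table of FPKM. The tool behind each table is not given in the sources used here, and FPKM could not be derived from the counts and exon lengths.

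Here, all 23018 genes with at least 10 counts in total were fitted with edgeR (version 4.0.16, R 4.3.3): TMM scaling, 1 model of 4 group means, robust quasi-likelihood test, Benjamini-Hochberg adjustment over all genes tested, called at an adjusted p under 0.05. SEs were derived from the F statistic. Alternatives were DESeq2 (1.42.0), RLE size factors, no filter, no robust prior, only the groups compared, limma (3.58.1) on log2(FPKM + 1) and on log2(FPKM + 0.1) for single genes, each library left out, and leaving out the 4 HIRA KO libraries that stand apart. The statistics script was tested on simulated data. p-values measure only the spread between these libraries. No pair of libraries within a group agreed within sampling noise.

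Coordinates and exon lengths came from GENCODE M21, matched by gene ID without its version (42 of the 43 members matched with it). Members and gene lists were chosen with earlier results of these data known. Named with values were the 12 members of highest mean CPM, every member called, the 3 members of largest log2 fold change in each direction of each comparison at a mean CPM of at least 1, and Cyp2r1 and Cyp2u1. Genes outside this rule (Cyp2c67, Cyp2d11, Cyp2d12, Cyp2d34, Cyp2d40, Cyp2g1, Cyp2j6, Cyp2j8, Cyp2t4, Cyp3a16, Cyp3a57 and list genes) were named after their values were seen. Values of some list genes are not reported here.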

Additional observations from a re-analysis of the deposited data

Results flagged for a closer look

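The 4 libraries of each group were checked for a value far from the others with Dixon's 95% critical value, in 104 groups over the 26 named members, and chance alone flags about 1 in 20 groups. There were 11 such values. Cyp2a4 gave 3: 6.51 CPM in control library 4 before regeneration (others 0.63 to 1.24), 1.88 CPM in HIRA KO library 4 before (others 3.55 to 3.74) and 606 CPM in control library 4 after (others 4.13 to 88.3).

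HIRA KO library 3 after regeneration was high for Cyp2c40, at 4.51 CPM (others 1.39 to 1.82), and for Cyp2c69, at 2.99 CPM (others 0.544 to 0.755). Cyp2c69 was also low in control library 1 before regeneration, at 0.298 CPM (others 0.533 to 0.572). Control library 2 after regeneration was high for Cyp2c65, at 0.516 CPM (others 0.048 to 0.125), and low for Cyp2d26, at 464 CPM (others 671 to 700.0).

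Cyp2s1 was at 12.0 CPM in HIRA KO library 1 before regeneration (others 0.188 to 0.467). Cyp3a41a had 0 counts in HIRA KO library 4 before regeneration and Cyp3a41b had 0 in control library 3 before regeneration, against 0.133 to 0.159 CPM and 0.0995 to 0.118 CPM in the other libraries of these groups.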

How the results depend on the processing

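No paired analysis was possible because the columns of the deposited tables carry neither the mouse nor the replicate numbers of the labels. The cause of the differences below was not tested. Between HIRA KO and control, the main edgeR fit called 0 members at each time (0.0391% of all genes before and 0.491% after). DESeq2 called 3 members before (1.63% of all genes) and 5 after regeneration (3.95%). The fit without a filter on low counts called 1 at each time (Cyp3a11, with edgeR adjusted p = 0.0176 and 0.042). The FPKM with limma gave 1 after regeneration (Cyp3a16), and leaving out 1 library gave 0 to 2 there, with 2 without HIRA KO library 3 and 1 without library 4. For regeneration in HIRA KO, against 5 in the report (12.0% of all genes), DESeq2 called 11 members (15.9% of all genes). The fit of these groups alone called 2. Leaving out 1 library gave 3 to 10, with 10 without HIRA KO library 4 after regeneration and 3 without library 3 after or library 4 before. For regeneration in control, against 10 (10.2% of all genes), the fit of these groups alone called 17. The fit without the libraries that stand apart called 19 (16.4% of all genes). With 1 library left out the number was 8 to 11. Shares of all genes are not reported here for the other settings, so their counts cannot be read as a change particular to the members.

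Among the pairs of gene and comparison followed through the alternatives, direction was kept except for Cyp2c50 in HIRA KO against control before regeneration without the libraries that stand apart (0.034), Cyp2s1 after against before regeneration in HIRA KO without those libraries (0.33) or without HIRA KO library 1 before regeneration (0.54, with -3.26 to 0.54 over all libraries left out in turn, and -3.73 to 0.069 for the interaction), and Cyp3a41a in HIRA KO against control after regeneration on log2(FPKM + 0.1) and log2(FPKM + 1) (0.28 and 0.27). Over these pairs, 336 values under other settings kept direction and side of the threshold, 19 lost the call and 34 gained one; with 1 library left out these were 429, 18 and 7. With 4 libraries a group, members of a few counts a library had wide intervals, and their differences were not detectable at this depth unless large.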
